A study of Mus musculus with 2 samples.

Results

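HIRA is the core subunit of a histone chaperone complex, with UBN1 or UBN2, CABIN1 and ASF1A, that places the histone variant H3.3 into chromatin outside of DNA replication. CA repeats are dinucleotide microsatellites, a common class of tandem repeat in the mouse genome, in which C and A alternate along a strand of the DNA and G and T along its complement. They form a run of alternating purines and pyrimidines, their length changes readily by slippage, and it differs between mouse strains. The peaks described here are those HIRA peaks that held a CA repeat and no GA repeat.

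The HIRA peaks came from 1 chromatin immunoprecipitation library made from a pool of 30 wild type hearts of CD1 mouse embryos (E12.5), cross-linked with EGS and formaldehyde and precipitated with the WC15 antibody against HIRA, with 1 input library from the same kind of pool. The whole embryonic heart was used, so the cell types in it cannot be told apart. The deposited list held 6624 intervals with no height or score for any of them. There was no second immunoprecipitation, so no value below has a replicate check, and the intervals given cover counting error over the peaks of this library only.

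Peaks were taken when the reference sequence inside them held CACACACA (4 consecutive CA units, or TGTGTGTG on the reference strand) and no GAGAGAGA or TCTCTCTC. This gave 703 of the 6624 peaks, or 10.6% (95% Wilson interval, 9.89 to 11.4). A further 878 peaks held a GA and no CA repeat, 185 held both and 4858 held neither. When the mouse genome was divided into windows of 181 bases, the median width of the 703 peaks, 5.01% of the windows held a CA and no GA repeat. A peak just inside the limit had exactly 4 CA units, which applied to 62 peaks, and 528 peaks without a GA repeat had exactly 3 units and were left out.

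The 703 peaks did not hold their CA run at the centre. In most of them the run lay at an edge of the peak, often continued beyond it, and left sequence without a dinucleotide repeat across the middle. The stretches below show this for peaks in or near genes that act in the heart and for a peak in Lhfp, which encodes a tetraspan membrane protein. Each is the peak with 40 bases of the GRCm38 (mm10) reference on either side, on the plus strand, so that the peak starts at base 41, and capitals mark every CA run of at least 4 units, also where it leaves the peak.
Nrg1 intron, chr8:32413082-32413330: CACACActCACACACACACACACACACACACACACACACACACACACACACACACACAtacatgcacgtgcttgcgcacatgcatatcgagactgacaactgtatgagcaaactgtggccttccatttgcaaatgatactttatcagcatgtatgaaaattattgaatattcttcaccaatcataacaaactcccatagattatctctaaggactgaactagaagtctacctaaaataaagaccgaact
Cacna1c intron, chr6:119043711-119043988: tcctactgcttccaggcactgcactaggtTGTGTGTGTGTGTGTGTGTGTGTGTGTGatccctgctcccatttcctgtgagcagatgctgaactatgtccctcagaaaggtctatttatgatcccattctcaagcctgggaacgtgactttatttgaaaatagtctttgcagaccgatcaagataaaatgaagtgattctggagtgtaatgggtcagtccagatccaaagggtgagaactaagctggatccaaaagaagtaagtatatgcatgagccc
3′ side of Nkx2-5, chr17:26835692-26835943: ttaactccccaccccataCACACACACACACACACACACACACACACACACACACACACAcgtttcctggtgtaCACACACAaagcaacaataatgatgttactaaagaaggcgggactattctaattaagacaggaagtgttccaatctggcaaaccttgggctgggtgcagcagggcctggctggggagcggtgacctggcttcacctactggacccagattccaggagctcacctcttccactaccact
Lhfp intron, chr3:53211085-53211325: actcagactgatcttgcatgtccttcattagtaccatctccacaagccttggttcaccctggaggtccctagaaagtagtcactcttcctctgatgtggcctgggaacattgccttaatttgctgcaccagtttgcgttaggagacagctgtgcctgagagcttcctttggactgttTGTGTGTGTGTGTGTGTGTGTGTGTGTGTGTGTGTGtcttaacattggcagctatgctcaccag

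Nrg1 encodes neuregulin 1, the endocardial ligand of ErbB receptors that trabeculation requires. Its peak, chr8:32413122-32413290, began inside a CA run of 25 units, of which 9 lay in the peak. Cacna1c, the pore-forming subunit of the L-type calcium channel, held a peak of 198 bases whose run had 8 of its 14 units inside. In a peak of Gja5, not printed here, which encodes the gap junction protein connexin 40, 14 of 25 units were inside. In Lhfp the figure was 12 of 18 units. The peak beside Nkx2-5, a homeobox factor of cardiac progenitors, held 10 of the 21 units of its longest run. In each of these 5 peaks the run reached to within 1 base of the peak's edge.

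Across all 703 peaks the centre of the longest CA run lay a median of 73 bases from the peak midpoint (quartiles 64.5 and 82.5), in peaks with a median width of 181 bases. The run came within 2 bases of an edge in 485 peaks (69.0%, 65.5 to 72.3) and within 10 bases in 544 (77.4%, 74.2 to 80.3). In genome windows with a CA and no GA repeat, whose edges were placed without regard to the repeats, the run came within 10 bases of an edge in 23.4% and its centre lay a median of 46.5 bases from the midpoint. The run continued past the edge by at least 1 unit in 432 peaks (61.5%, 57.8 to 65.0), against 10.7% of such windows. It was centred within 20 bases of the midpoint in 48 peaks (6.83%, 5.19 to 8.94), against 21.9% of the windows. The placement at the edge was thus seen on every one of these measures, and the intervals of the peaks lay clear of the window values.

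Only 10 peaks had CA runs within 10 bases of both edges, so the usual form was a run at a single edge with other sequence towards the opposite edge. A share of 35.0% of the peaks was covered by a CA run 80 to 100 bases to the left of the midpoint, and 32.3% at the same distance to the right. Coverage fell to 5.70% in the 20 bases right of the midpoint. At 280 to 300 bases from the midpoint it was 2.57% on the left and 2.31% on the right, against 1.38% on either side of the genome windows with a CA and no GA repeat and 0.382% and 0.422% for peaks with neither repeat.

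**Figure D1:**
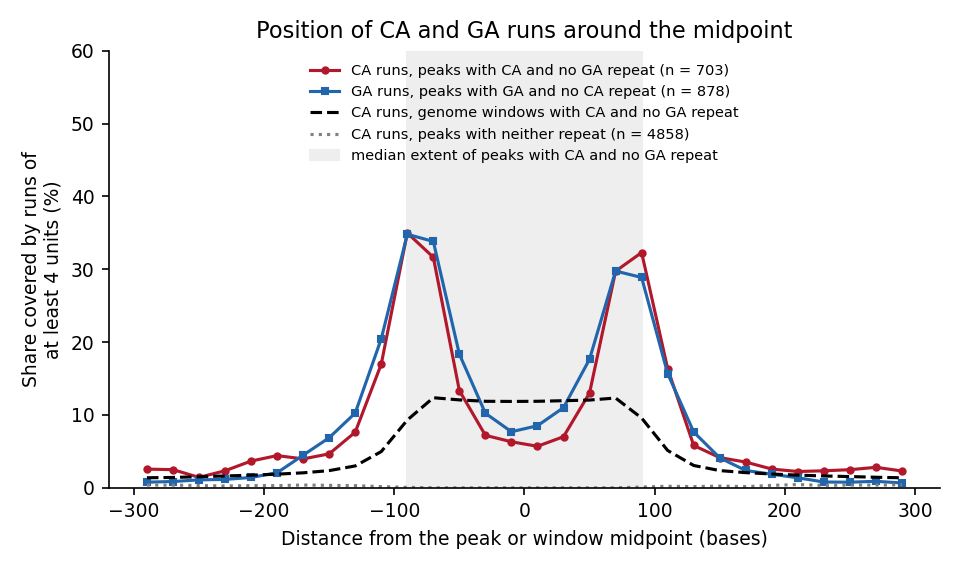
Share of peaks or genome windows covered by CA or GA runs of at least 4 units, in bins of 20 bases by distance from the midpoint (negative values lie to the left on the reference). The 703 peaks with a CA and no GA repeat reach 35.0% and 32.3% at 80 to 100 bases on either side and drop to 5.70% beside the midpoint, the 878 peaks with a GA and no CA repeat have the same shape for GA runs, and genome windows with a CA and no GA repeat stay near 12% across the window. Peaks with neither repeat are at 0 near the midpoint by their definition.

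The peaks with a GA and no CA repeat had their GA runs in a like place. The centre of the longest GA run lay a median of 71 bases from the midpoint, and it came within 10 bases of an edge in 621 of 878 peaks (70.7%, 67.6 to 73.6), an interval that falls below that of the CA run peaks without overlap. The edge position was therefore shared by both kinds of repeat peak and was not particular to CA.

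The side of the run was not independent of its strand. Read along the strand that carries CA, the run lay on the 5′ side of the peak midpoint in 429 of 703 peaks (61.0%, 57.4 to 64.6), and the rest of the peak followed on its 3′ side. Of these, 226 runs were CA on the plus strand at the left of the midpoint and 203 were CA on the minus strand at the right. The remaining peaks divided into 133 with CA on the minus strand at the left and 141 with CA on the plus strand at or right of the midpoint. In genome windows the run lay 5′ of the midpoint in 49.8%. For GA runs, read along the GA strand, the 5′ share was 71.4% (68.3 to 74.3), higher than for CA runs. The runs themselves were divided nearly evenly between strands, with CA on the plus strand in 367 peaks and on the minus strand in 336.

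The longest CA run inside a peak had a median of 12 units (quartiles 8 and 16). Followed to its end in the reference genome, the same run had a median of 17 units (quartiles 11 and 21). The CD1 hearts are not of the reference strain, C57BL/6J, so these are lengths of the reference and not of the DNA in the library. A whole run of 15 to 24 units was the commonest form, with 205 peaks at 15 to 19 units and 191 at 20 to 24. In genome windows with a CA and no GA repeat, 66.3% of the runs had 4 to 9 units, against 20.3% (17.5 to 23.5) in the peaks. The 703 peaks thus held long microsatellites more often than such windows did.

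**Figure D2:**
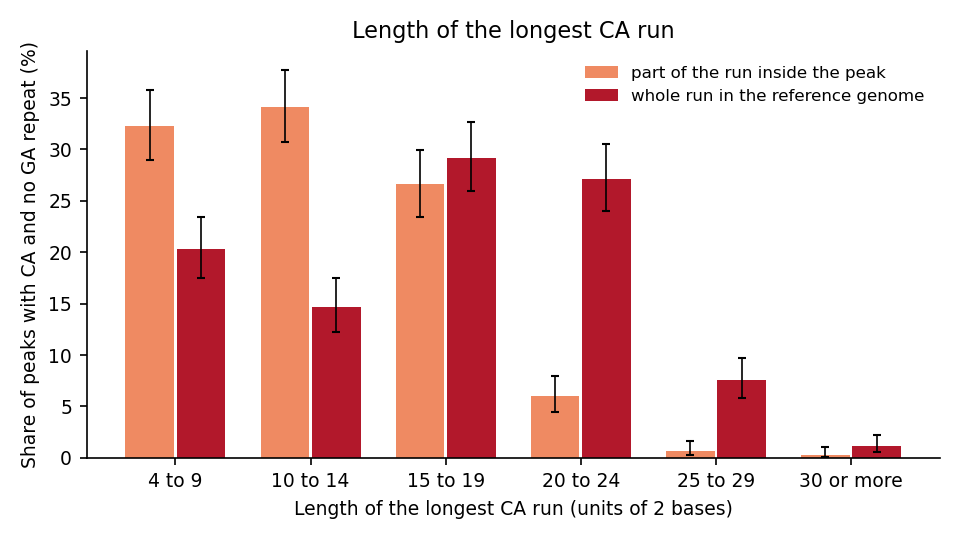
Share of the 703 peaks by the length of their longest CA run, counted inside the peak (light bars) and over the whole run in the reference genome (dark bars), with 95% Wilson intervals. Inside the peak 32.3% of the runs have 4 to 9 units, while over the whole run 29.2% have 15 to 19 and 27.2% have 20 to 24 units.

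Most peaks, 516 of 703, held 1 run of at least 4 units, 108 held 2 and 79 held 3 or more, up to 22. CA runs made up a median of 14.8% of the bases of a peak (quartiles 10.6 and 20.0). The peaks with the longest run inside were an intergenic peak on chromosome 13 and a peak in intron 13 of Atm, the kinase that signals DNA double-strand breaks, printed below to show how much of such a peak the repeat can fill.
Intergenic, chromosome 13, chr13:98495854-98496150: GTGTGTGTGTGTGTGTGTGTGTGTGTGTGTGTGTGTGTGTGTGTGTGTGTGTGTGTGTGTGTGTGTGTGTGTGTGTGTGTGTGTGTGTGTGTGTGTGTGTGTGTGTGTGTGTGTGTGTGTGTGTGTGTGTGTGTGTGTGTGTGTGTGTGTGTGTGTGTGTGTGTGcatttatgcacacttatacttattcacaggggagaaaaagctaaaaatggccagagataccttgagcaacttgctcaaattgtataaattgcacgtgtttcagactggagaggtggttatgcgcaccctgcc
Atm intron, chr9:53508418-53508672: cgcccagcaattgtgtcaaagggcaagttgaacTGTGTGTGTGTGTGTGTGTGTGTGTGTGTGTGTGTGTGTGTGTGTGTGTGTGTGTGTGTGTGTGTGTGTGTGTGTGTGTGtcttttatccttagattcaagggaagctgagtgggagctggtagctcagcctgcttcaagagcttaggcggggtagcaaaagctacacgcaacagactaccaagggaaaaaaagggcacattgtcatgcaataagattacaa

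The peak on chromosome 13, at 98495894 to 98496110, held 62 CA units of a run that extended over 195 units, the longest run of any of the 703. The Atm peak, chr9:53508458-53508632, held 36 of 40 units. The next longest run inside was of 27 units, in an intron of Gpr63 (chr4:25001495-25001688). A run of 26 units was held by 3 peaks, at chr11:16256703-16256881 on the 5′ side of Vstm2a, at chr12:30419819-30419990 in 2310016D03Rik and in an intergenic peak at chr14:48986662-48986860. The peak in 2310016D03Rik held 7 separate CA runs and was soft-masked over its whole length.

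The widest members looked different. A peak of 574 bases in Stab2, which encodes a scavenger receptor for hyaluronan, held a run of 20 units 79 bases from its edge. A peak of 516 bases on chromosome 13 (56744686 to 56745201) held 8 runs, and a peak of 454 bases in intron 1 of Pdzk1, which encodes a scaffold protein of membrane transporters, held 9 runs of which none exceeded 4 units. All words of 32 bases in the Pdzk1 peak and 93.0% of those on chromosome 13 occurred more than 1 time in the genome. Few peaks were this wide, since 19 of the 703 exceeded 250 bases (2.70%), against 676 of the 4858 peaks with neither repeat (13.9%). Of the 878 peaks with a GA and no CA repeat, 28 did so (3.19%), near the share of the 703.

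The position of the run depended on its length. In the 62 peaks with exactly 4 units the run centre lay a median of 43 bases from the midpoint and within 10 bases of an edge in 7 peaks (11.3%, 5.58 to 21.5), close to the 15.6% of genome windows with such a run. In the 240 peaks with 10 to 14 units inside, the run came within 10 bases of an edge in 220 (91.7%, 87.5 to 94.5), against 39.3% of windows. With 15 to 19 units it did so in 167 of 187 peaks (89.3%) against 31.99% of windows, and with 20 or more in 33 of 49 (67.3%, 53.4 to 78.8) against 24.5%. Because a run cut by the edge has fewer units inside, the length inside and the edge position are not independent measures, which is why windows of the same class are given. The run of the shortest repeats was thus at the edge about as often as in the windows, and it was centred within 20 bases of the midpoint in 23 of the 62 peaks (37.1%, 26.2 to 49.5), more often than in the windows (23.0%). In the classes with 5 or more units the share at the edge lay above that of the windows. A pair of peaks whose longest run ended inside the peak is printed for comparison, in intron 1 of Kcnd2, which encodes a transient outward potassium channel, and in intron 3 of Prdm16, which encodes a zinc finger regulator of compact myocardium.
Kcnd2 intron, chr6:21248174-21248440: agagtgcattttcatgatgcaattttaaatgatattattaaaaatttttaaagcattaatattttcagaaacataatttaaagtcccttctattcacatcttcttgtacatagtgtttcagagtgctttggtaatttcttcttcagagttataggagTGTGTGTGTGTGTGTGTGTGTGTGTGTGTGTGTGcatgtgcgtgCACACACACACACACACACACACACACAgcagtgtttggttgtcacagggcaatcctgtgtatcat
Prdm16 intron, chr4:154472468-154472710: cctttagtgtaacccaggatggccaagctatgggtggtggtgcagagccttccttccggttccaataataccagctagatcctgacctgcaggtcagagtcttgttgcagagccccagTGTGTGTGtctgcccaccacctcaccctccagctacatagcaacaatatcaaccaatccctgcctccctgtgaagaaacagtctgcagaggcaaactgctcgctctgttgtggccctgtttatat

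The Kcnd2 peak, chr6:21248214-21248400, had a run of 17 units whose centre was 40.5 bases from the midpoint, and a run of CA on the opposite strand at its edge. The Prdm16 peak, chr4:154472508-154472670, had its only run, of 4 units, 0.5 bases from the midpoint, and no multi-copy word. Both belonged to the 271 peaks whose longest run ended inside the peak.

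The share of all genomic CA runs that lay in any HIRA peak was small. Of the 103469 runs of 20 units or more in the reference, 295 overlapped a peak (0.285%, 0.254 to 0.320). The share was 0.0875% for runs of 4 to 9 units, 0.236% for 10 to 14 and 0.312% (0.277 to 0.351) for 15 to 19, and it did not rise further at 20 to 24 (0.286%) or 25 to 29 units (0.285%). For GA runs it was higher in each length class up to 39 units and went on rising, from 0.167% at 4 to 9 units to 0.725% at 20 to 24 and 1.11% (0.949 to 1.30) at 30 to 39 units. At 40 units or more only 2 of 157 CA runs lay in a peak, and the interval of 0.350% to 4.53% covers the GA value of 1.49%. Runs of 20 or more CA units whose flanking 32-base words were both single-copy were in a peak in 0.275% (0.241 to 0.314), and the others in 0.319% (0.254 to 0.399), intervals that overlap.

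**Figure D3:**
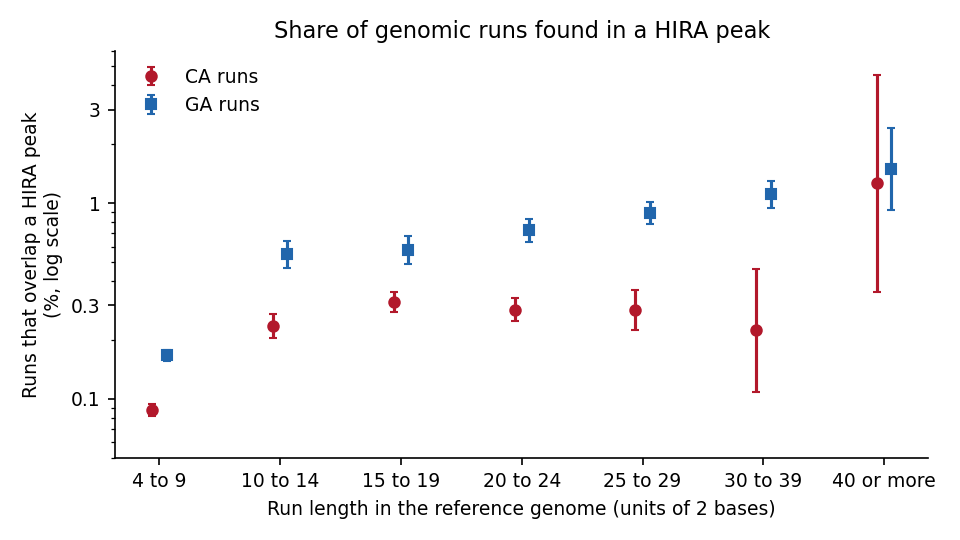
Share of all CA and GA runs of the reference genome that overlap any HIRA peak, by run length, with 95% Wilson intervals on a log axis. CA runs from 15 to 39 units lie between 0.224% and 0.312%, while GA runs rise from 0.167% to 1.49%, and the interval of the longest CA runs is wide because there are 157 of them.

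The CA run aside, the sequence of these peaks was mostly present in 1 copy. The share of overlapping 32-base words that occurred more than 1 time in the genome had a median of 7.83% per peak (quartiles 1.66 and 17.3), against 17.97% in peaks with a GA and no CA repeat and 90.2% in peaks with neither. All words were multi-copy in 23 of the 703 peaks (3.27%, 2.19 to 4.86) and in 2053 of the 4858 peaks with neither repeat (42.3%, 40.9 to 43.7). At least 1 multi-copy word was found in 568 peaks (80.8%). When words that touch a CA run were left out, 679 peaks had a word left, and 518 of these (76.3%, 73.0 to 79.3) had no multi-copy word at all. Outside the CA run the sequence of most of these peaks was therefore unique in the reference. The treatment of reads with several alignments is not given in the sources used here, and its part in these shares was not tested.

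Soft-masked bases, which the reference gives in lower case to mark repeats, had a median of 40.5% per peak (quartiles 26.2 and 61.4). The median was 50.7% in peaks with a GA and no CA repeat and 100% in peaks with neither, while genome windows with a CA and no GA repeat had 42.0%. Wholly soft-masked peaks numbered 46 (6.54%), against 54.6% of the peaks with neither repeat. In repeat masking with the CA runs included, the 703 peaks were thus near the genome windows and far from the bulk of the list. Their runs were longer than those of the windows, with a median of 12 units inside against 5. With CA runs left out, the masked share of all bases of the peaks went from 46.3% to 35.5%. No such value is given for the windows. Peaks whose run continued past an edge had a lower median of soft-masked bases, 35.4%, than those whose run ended inside, 50.9%.

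**Figure D4:**
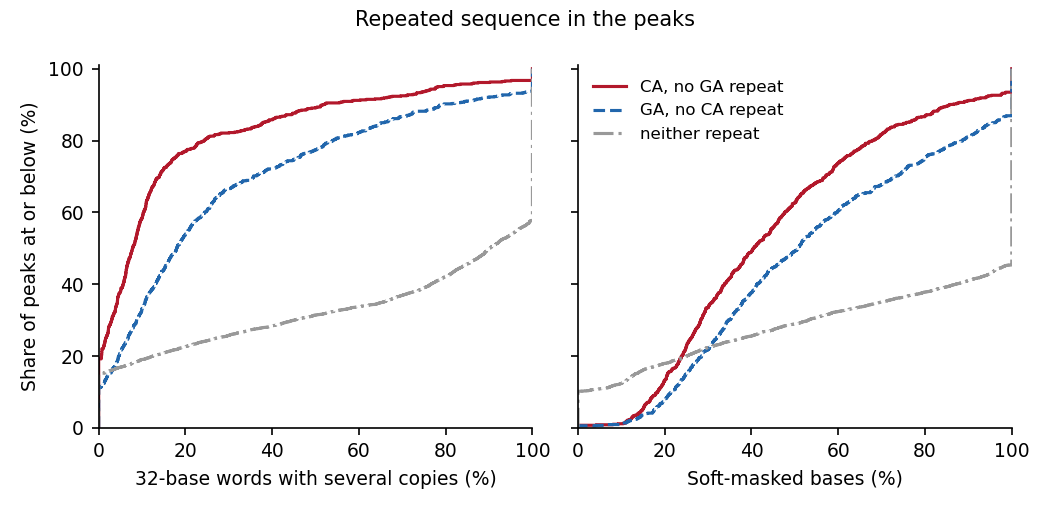
Cumulative share of peaks by the percentage of their 32-base words with several genomic copies (left) and by their percentage of soft-masked bases (right), for the 703 peaks with a CA and no GA repeat, the 878 with a GA and no CA repeat and the 4858 with neither. The CA curve rises first in the left panel, with a median of 7.83%, and the curve of peaks with neither repeat stays lowest over most of the range, with 42.3% of them at 100%.

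The peaks just inside the limit, with exactly 4 units, resembled the rest of the list more. Every word was multi-copy in 14 of these 62 peaks (22.6%), against 9 of the 641 with 5 or more units (1.404%) and 214 of the 528 peaks just outside, with 3 units (40.5%). Their medians of soft-masked bases were 47.2%, 40.1% and 96.2%, in the same order. The GC content of the 703 peaks had a median of 44.0% (quartiles 38.8 and 48.7), compared with 42.0% in the genome windows.

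By the annotation at the midpoint, 328 of the 703 peaks lay in introns (46.7%, 43.0 to 50.4), 314 were intergenic (44.7%, 41.0 to 48.4), 44 were promoter peaks, no more than 1 kb from an annotated start (6.26%, 4.70 to 8.30), and 17 were in exons (2.42%, 1.52 to 3.84). Peaks with neither repeat were less often intronic (33.9%, 32.6 to 35.3) and more often intergenic (57.0%, 55.6 to 58.3). Genome windows with a CA and no GA repeat divided as 44.1% intronic, 48.0% intergenic, 5.56% near a start and 2.31% exonic, and each of these values lay inside the interval of the 703 peaks. The location of the peaks among genes was thus close to that of such windows. The run length differed little between the classes, with medians inside the peak of 12 units in introns and between genes, 11 near starts and 10 in exons.

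**Figure D5:**
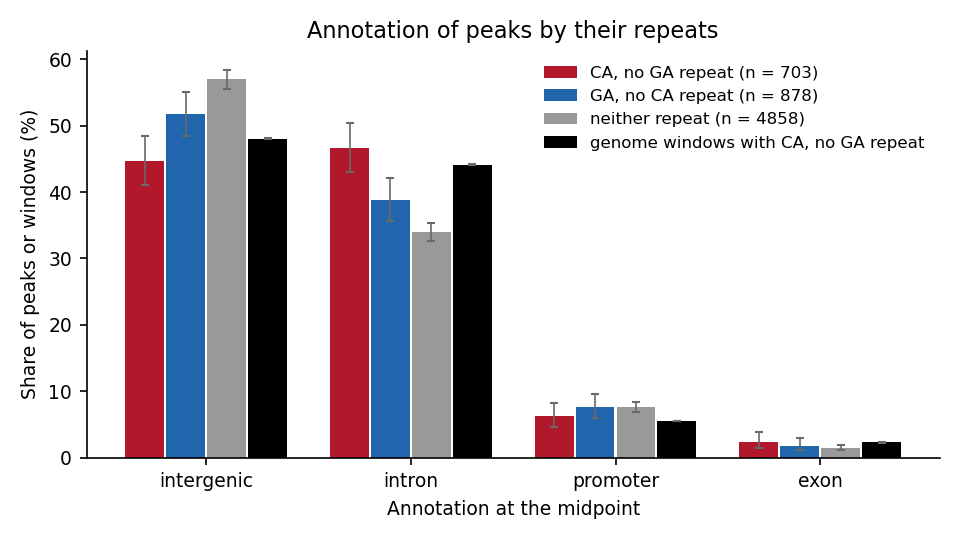
Share of peaks or windows by the annotation at their midpoint, with 95% Wilson intervals, for 3 groups of HIRA peaks and for genome windows of 181 bases that hold a CA and no GA repeat. The 703 peaks have 46.7% in introns and 44.7% between genes, near the windows at 44.1% and 48.0%, while peaks with neither repeat have 33.9% and 57.0%.

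Peaks with the midpoint in coding sequence numbered 2, in Hydin, which encodes a protein of motile cilia, and Reep5, which encodes a membrane-shaping protein of the endoplasmic and sarcoplasmic reticulum. In introns and other gene bodies the strand of the repeat was compared with that of the gene. CA was on the sense strand in 155 of 348 peaks that lay in genes of 1 direction (44.5%, 39.4 to 49.8), and another 26 peaks lay in genes of both directions and were left out. The upper bound lies just below an even division. The share was 45.5% with protein-coding genes only, 46.1% with RefSeq genes and 45.0% in peaks with at least 6 CA units. No such share is given for the genome windows, and a lean against the sense strand was not tested.

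The runs nearest to a transcript start of a protein-coding gene were at Fanci, 7 bases 3′ of the start, and at Tfap2b, 19 bases 5′ of it. Those at Fam3c and Apbb1 lay 184 and 212 bases 5′ of a start, and that at Fech 225 bases 3′. Fanci encodes a Fanconi anaemia protein of DNA crosslink repair, Tfap2b an AP-2 transcription factor expressed in neural crest, Fam3c a secreted protein, Apbb1 an adaptor that binds the amyloid precursor protein, and Fech the last enzyme of haem synthesis. The Fanci peak, chr7:79391812-79392021, held only 4 units, while the Fam3c peak, chr6:22356410-22356585, held 17 of 23 units and its run came to within 1 base of the edge. The stretch at Tfap2b is printed because it carries a CG repeat between CA repeats.
5′ side of Tfap2b, chr1:19208676-19208947: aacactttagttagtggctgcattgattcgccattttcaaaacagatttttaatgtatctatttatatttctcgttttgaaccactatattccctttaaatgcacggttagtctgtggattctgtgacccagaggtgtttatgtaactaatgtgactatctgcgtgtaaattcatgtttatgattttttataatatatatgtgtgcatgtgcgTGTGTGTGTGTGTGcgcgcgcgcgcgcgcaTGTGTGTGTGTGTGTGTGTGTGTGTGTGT

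The starts just given are those of any GENCODE transcript of the gene, and the RefSeq gene starts differ from them at Fanci, Tfap2b, Fam3c and Apbb1. The Fech peak lay in intron 4 of 10 of the gene's longest transcript, so the start used for it need not be the main gene start. Of 32851 RefSeq promoter windows, from 250 bases before to 50 bases after the gene start, 3.86% held a CA and no GA repeat. By these starts 2 of the 703 peaks overlapped such a window, those of Kcmf1, which encodes a ubiquitin ligase, at chr6:72900118-72900290, and Tex21, named for its expression in testis, at chr12:76246886-76247063.

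Among 21938 protein-coding genes, 379 (1.73%) had 1 of the peaks in the gene body or within 5 kb. These genes were long, with a median of 106.8 kb against 17.4 kb for all protein-coding genes. The share was 5.355% of the 1494 genes of 100 to 200 kb and 12.53% of the 998 genes of at least 200 kb. Gene lists for the heart were read against these values. The lists were chosen with earlier results of these data known, so their shares do not test an excess over all genes. Of 117 listed genes, with a median length of 45.9 kb, 9 had a peak (7.69%). The lengths of the genes move with these counts, and their part in the result was not tested.

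None of the 27 sarcomere genes had 1 of the peaks within 5 kb. Some HIRA peak lay there in 10 of the 27, against 2438 of all 21938 protein-coding genes. The median lengths were 23.9 kb and 17.4 kb, and the part of gene length was not tested. The median distance of the sarcomere genes to the nearest of the 703 peaks was 1320 kb, against 1195 kb for all protein-coding genes. At a background of 1.73% a list of this size need hold none, so the absence says nothing particular about sarcomere genes. None of 7 genes of the HIRA complex and of H3.3 had 1, and neither did any of 15 genes named in the work on Hira in the heart, some of which, such as Tnni2 and Tnnt3, are also among the sarcomere genes. Tnni2, the fast skeletal troponin I gene, was 3137 kb from the nearest of them and Tnnt3, its troponin T counterpart, 3194 kb.

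Of 23 ion channel and calcium handling genes, 3 had a peak (13.0%), in Cacna1c, Gja5 and Kcnd2, at a median gene length of 162.2 kb. The Cacna1c peak was in intron 3, 152.6 kb from the gene start, and the Gja5 peak in intron 1, 66.2 kb from it. The Kcnd2 peak was in intron 1, 32.8 kb from the start. All of these are long genes, of 609.2 kb, 172.7 kb and 514.3 kb.

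Of 25 cardiac transcription factor genes, Nkx2-5 and Prdm16 had a peak (8.0%), at a median gene length of 28.5 kb. The peak of Nkx2-5, chr17:26835732-26835903, was intergenic, 2.76 kb beyond the 3′ end of the gene. It was free of multi-copy words and 27.9% soft-masked. Meis1, a homeobox factor, and Srf, the serum response factor, had a peak outside the 5 kb limit, at 12.2 kb and 14.8 kb.

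Of 26 genes listed under endocardial cushions and signalling, 4 had a peak (15.4%), at a median gene length of 91.8 kb. Besides Nrg1, whose peak lay 470.8 kb from the annotated gene start, they were Ctnna3, Fgfr2 and Nfatc1. Ctnna3, a gene of 1574 kb, was in this list although it encodes the α-T-catenin of intercalated discs. It had a run of 22 units wholly inside its peak in intron 13 (chr10:64726754-64726936). Nfatc1, the calcineurin-regulated factor of valve endocardium, had a peak in intron 3 with 6 of 9 units inside and no multi-copy word. The peak assigned to Fgfr2, a fibroblast growth factor receptor, lay 2414 kb from the annotated start of a gene model of 2961 kb that also covers Tacc2, so its link with Fgfr2 rests on that model. Across the 9 listed genes CA was on the strand of the gene in 5 and on the opposite strand in 4.

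Several genes held more than 1 of the peaks. Cacna2d4, an auxiliary subunit of voltage-gated calcium channels, held 3 in 115.9 kb and Ppm1l, a protein phosphatase, held 3 in 243.9 kb. Another 14 protein-coding genes held 2, among them Runx2, the osteoblast transcription factor, and Akap6, which anchors protein kinase A in cardiomyocytes.

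Other sequence features were compared with the same windows. A run of 24 alternating purines and pyrimidines was found in 67.7% of the peaks (64.2 to 71.1) against 40.3% of windows with a CA and no GA repeat, and 24 bases of A and C only, on either strand, in 63.3% against 31.7%. Both features overlap long CA runs and follow the run lengths given above. Runs of 24 purines, which the exclusion of GA repeats limits, were in 3.70% (2.54 to 5.36) against 1.60%. ATATATAT was found in 42 peaks (5.97%, 4.45 to 7.98) against 7.04% of windows, and CGCGCGCG in 9 (1.28%, 0.675 to 2.42) against 1.22%. Neither differed from the windows by more than its interval.

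The motifs of cardiac transcription factors were searched as letters on both strands. AGATAA, bound by GATA factors, was in 66 peaks (9.39%, 7.45 to 11.8) against 10.2% of the windows, and TNAAGTG, bound by NKX2-5, in 54 (7.68%, 5.94 to 9.89) against 9.41%. GGTGTGA, bound by T-box factors, was in 2.56% against 2.11%, and the CArG box of serum response factor in 0.569% against 0.718%. GGAATG, bound by TEAD factors, was in 71 peaks (10.1%, 8.08 to 12.6) against 7.71%, and the MEF2 motif in 2.28% (1.41 to 3.67) against 3.96%. The TEAD share was thus above and the MEF2 share below that of the windows by more than the interval, while the others were within it. All of these are matches of letters only. In all windows of the genome, GGAATG was found in 9.84% and the MEF2 motif in 4.23%.

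The 20 bases next to the longest run were also read, on either side along the CA strand. Another CA tract (CACACA or TGTGTG) was in these bases at 285 of the 703 peaks (40.5%, 37.0 to 44.2), an AT tract (ATATAT or TATATA) at 59 (8.39%) and a CG tract (CGCG or GCGC) at 57 (8.11%). CG tracts lay on the 5′ side in 41 peaks and on the 3′ side in 18. AT tracts lay on the 5′ side in 26 and on the 3′ side in 43. The tract shares have no window value beside them, so whether they are particular to these peaks was not tested. GA repeats, excluded inside the peaks, were found within 100 bases of them in 76 peaks (10.8%, 8.73 to 13.3), against 5.27% of the genome windows with a CA and no GA repeat and 2.98% (2.54 to 3.50) of the peaks with neither repeat.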

How the data were processed

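HIRA chromatin immunoprecipitation and input DNA from pools of 30 hearts were sequenced by the authors. They aligned reads to mm10 with bowtie2, removed duplicates and poor-quality reads, and called peaks against the input with MACS in Strand NGS. The deposited file lists 6624 peaks by chromosome and by start and end in bases, without a score. Per the file header, the fragment length was 200 bases, the p-value cutoff 0.0010, the enrichment limits 5 to 50 and the padding 5000 bases, while the methods state a stricter cutoff. Read depth is not given in the sources used here.

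Sequences were read from GRCm38.p6, the same build, and genes from GENCODE (55413 genes) with RefSeq (49598 genes) as an alternative. Runs were exact matches of at least 4 units. Copies of 32-base words were counted on both strands of the 21 chromosomes. A peak was classed at its midpoint in the order promoter (1 kb), exon, intron, intergenic. Genome windows of 181 bases were laid end to end and those with unknown bases left out, which gave 14626711. Intervals are 95% Wilson intervals over peaks and cover counting error only, and a peak is not a replicate. Computations used Python 3.11.15 with numpy 2.4.6, pandas 2.3.3 and numba 0.67.0 and were tested on simulated sequences. Named peaks were those with the 5 longest runs (a tie at the fifth place was settled by chromosome and start, and the peak it left out is named after its values were seen), the 3 widest, the 3 longest among those without multi-copy words, the 5 nearest to a coding gene start, those within 5 kb of a listed gene, 1 for each of the largest groups with shared words and the 3 closest pairs. Sequence from chromosome 18 is not shown. Members and lists were chosen with earlier results of these data known.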

Additional observations from a re-analysis of the deposited data

How the results depend on the processing

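Every value here describes 1 library, and none has a test. Of 52 alternatives to 12 values, 34 stayed within the interval of the reported value (for counts, within 1.5 times of it) and 18 did not. The count of 703 peaks became 1231 with 3 CA units, 1825 with 1 mismatch in the repeat and 298 among peaks wider than 185 bases, the median of the list. The share that was intergenic became 51.9% with protein-coding genes only. The intronic share became 50.5% with RefSeq genes and 42.4% with protein-coding genes only, and the promoter share 4.13% with either and 2.56% within 500 bases of a start. The median longest run was 17 units over the whole reference run, a measure chosen after seeing the data. The median distance from the midpoint was 70.5 bases for the nearest run, 84 in wider peaks and 77.5 in peaks without a multi-copy word, the last chosen after seeing the data. Peaks with a multi-copy word were 96.2% with 24-base words and 23.7% without words that touch a CA run, and soft-masked bases went from 46.3% to 35.5% without CA runs. The share of CA runs of at least 20 units in a peak was 0.0232% when the run had to lie wholly inside and 0.361% within 100 bases. Beyond what the settings themselves define, the cause was not tested. No paired analysis was possible because the design has a single HIRA library. Read depth is unknown, peak heights were not analysed here, and the input was not analysed here.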

Other observations

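The peaks with a CA and no GA repeat were spread over all 21 chromosomes. They made up between 9.30% and 14.3% of the peaks of each autosome, the last on chromosome 17, but 24 of 400 peaks on the X (95% Wilson interval, 4.07% to 8.77%) and 7 of 158 on the Y (4.43%, 2.16 to 8.86). Against the number of genome windows with a CA and no GA repeat, the X, with 24 peaks and 30854 windows, was inside the range of the autosomes, which ran from chromosome 8, with 29 peaks and 38586 windows, to chromosome 7, with 52 peaks and 38751 windows. The Y, with 7 peaks and 17979 windows, was below that range. All 7 peaks on the Y shared 32-base words with each other, held exactly 4 CA units each and consisted of multi-copy words throughout. Counting only words that touch no CA run, they formed the largest of 16 groups of peaks with shared words, 13 of which had 2 members. On the same count, 664 of the 703 peaks shared no word with another.

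The peaks were seldom close to each other. Within 10 kb of another such peak lay 16 of them, and within 10 kb of any HIRA peak 45. Their median distance to the nearest HIRA peak was 135.7 kb. No such values are given for the other HIRA peaks, so whether the spacing is particular to these peaks was not tested. The closest pair, 381 bases apart between their midpoints on chromosome 7 (126342512 to 126342688 and 126342863 to 126343099), held runs of at most 5 units, with 63.7% and 100% multi-copy words. The next pairs were 2411 bases apart on chromosome 15 and 4792 bases apart in Cacna2d4, where the peaks held 16 and 12 units at their edges.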
